A study of Homo sapiens with 6 samples.

Results

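Bone morphogenetic protein (BMP) signalling was examined through 10 genes, the ligands BMP2, BMP4 and BMP7, the receptors BMPR1A, BMPR1B and BMPR2, and the target genes ID1, ID2, ID3 and ID4. They were found by their gene names among the gene probes of a whole-transcriptome oligonucleotide array, and make up 10 of its 25940 gene names and 15 of its 34127 probes. BMP7 and BMPR1A each had 3 probes, ID2 had 2, and the others had 1.

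The arrays compared 2 lines derived from T47Dco (given as T47D in the labels), a luminal, hormone receptor-positive human breast cancer line that was grown as xenografts in immunodeficient mice. The pure luminal line, pLUM, came from a tumor raised with estradiol (E). It was cultured for about 2 months in 1 nM E, sorted for CLD3+ CD49f- cells, cultured again for about 2 months in E and sorted again, and was given 1 nM E for 72 h before RNA was taken. The pure luminobasal line, pLB, came from a tumor raised with E plus progesterone. It was cultured for about 2.5 months under estrogen withdrawal (EWD), sorted for CLD3- CD49f+ cells, cultured for about 2 months more and sorted again, and had no E before RNA was taken. Both lines were kept in medium with 5% charcoal-stripped serum, and both were stained for cytokeratin 5 (CK5) and sorted on it just before extraction. The sources used here do not give the CK5 fraction that went onto each array. There were 3 arrays of pLUM and 3 of pLB, from triplicate sorts of 1 line each, so the p-values measure the spread between sorts and not between tumors. Cell line, tumor of origin and presence of E coincide in this design and cannot be told apart.

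BMP ligands are secreted dimers of the TGF-beta superfamily. They bring together type I receptors, such as BMPR1A and BMPR1B, and type II receptors, such as BMPR2, which phosphorylate SMAD1, SMAD5 and SMAD9. These join SMAD4 and act on target genes, of which the ID genes are the best known. ID proteins pair with basic helix-loop-helix E proteins but lack the basic region, so the pair does not bind the E-box of DNA. In the mammary gland ID2 is known for its part in alveolar development, and ID4 for its expression in basal epithelium.

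The stretches before the starts of the 4 ID genes are shown because these genes moved in different directions between the lines. Each is the 250 bases before the start in the RefSeq table (GRCh38.p14), written 5′ to 3′ on the strand of the gene. Capitals mark the E-box, CANNTG, the letters that E proteins are known to read. ID1 is at chr20:31605039-31605288 (+), ID2 at chr2:8681806-8682055 (+), ID3 at chr1:23559502-23559751 (-) and ID4 at chr6:19837120-19837369 (+).
ID1: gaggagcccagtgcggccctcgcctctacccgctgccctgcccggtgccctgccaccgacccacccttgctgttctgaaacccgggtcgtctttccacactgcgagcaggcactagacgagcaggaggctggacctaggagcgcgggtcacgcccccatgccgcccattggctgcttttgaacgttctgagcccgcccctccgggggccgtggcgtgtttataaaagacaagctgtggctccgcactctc
ID2: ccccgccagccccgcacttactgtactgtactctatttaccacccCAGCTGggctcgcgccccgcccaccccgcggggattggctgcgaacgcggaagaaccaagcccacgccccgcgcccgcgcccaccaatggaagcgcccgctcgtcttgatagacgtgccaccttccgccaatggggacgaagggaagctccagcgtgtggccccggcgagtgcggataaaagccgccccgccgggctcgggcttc
ID3: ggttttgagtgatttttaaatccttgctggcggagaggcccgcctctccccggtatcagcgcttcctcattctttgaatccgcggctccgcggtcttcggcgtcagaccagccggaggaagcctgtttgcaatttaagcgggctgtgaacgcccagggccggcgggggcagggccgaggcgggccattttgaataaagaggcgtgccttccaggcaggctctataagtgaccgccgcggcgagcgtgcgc
ID4: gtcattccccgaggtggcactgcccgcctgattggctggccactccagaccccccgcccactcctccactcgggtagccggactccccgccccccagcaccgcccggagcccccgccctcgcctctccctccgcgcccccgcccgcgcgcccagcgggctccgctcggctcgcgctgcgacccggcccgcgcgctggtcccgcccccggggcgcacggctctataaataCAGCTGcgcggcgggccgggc
An E-box lay 205 bases before the start of ID2 and 21 bases before that of ID4, both spelled CAGCTG. The windows of ID1 and ID3 held no CANNTG. Over 35116 windows of the same 250 bases in the table, 61.8% held CANNTG and 14.0% held CAGCTG, which is 1 of its spellings. GGCGCC, a GC-rich motif read by SMAD1 and SMAD5, was in 16.4% of all windows. GTCTAGAC, the palindrome read by SMAD4, was in 0.182%, and neither was in any of the 4 shown. Bases further from the starts were not searched, so the windows cannot show whether the ID genes have these motifs elsewhere. All 4 motifs read the same on both strands, and a match is a description of letters, not a binding site. The table held entries for 8 of the 10 genes.

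The probes through which ID2, BMPR1B and BMP7 were read are shown next, as the parts of the transcripts that were measured. Those of ID2 and BMPR1B are split in the genome over 389 and 3779 bases for 60 bases of probe, and so cross a junction between exons. The probe of BMP7 is 1 of 3, and its 60 bases hold a reading frame open over all 20 codons. Positions are those of the array files (hg19), chr2:8822642-8823030 (+) for ID2, chr4:96070038-96073816 (+) for BMPR1B and chr20:55803380-55803439 (-) for BMP7.
ID2 probe: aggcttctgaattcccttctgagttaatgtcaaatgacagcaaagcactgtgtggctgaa
BMPR1B probe: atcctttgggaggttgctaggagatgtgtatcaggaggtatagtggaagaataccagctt
BMP7 probe: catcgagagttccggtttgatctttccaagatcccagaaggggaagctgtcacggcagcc
All values below are log2 signals relative to the 75th percentile of the same array, so that 0 is the level of that percentile. Levels of different probes cannot be set against each other. A probe was tested when it was well above background on at least 3 of the 6 arrays, and called when it differed at least 2-fold with a Benjamini-Hochberg adjusted p under 0.05 in limma. P-values are adjusted over the 17670 genes tested for the brightest probe of a gene, and over the 23105 probes tested for its further probes. Where a probe was not well above background on any array of a line, the fold is a bound, written "at least", set by the dimmest signals that the arrays of that line measured. A bound holds for the processed signals, and other background corrections can give smaller values. In bulk RNA, fewer cells that make a transcript and less of it per cell cannot be told apart.

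The 6 arrays had 21285 to 22775 probes well above background, and 75th percentiles of 449 to 869. No gene spot was saturated. Arrays of 1 line correlated at r = 0.972 to 0.991 over the tested probes and arrays of different lines at r = 0.780 to 0.806. Slide 1 held the 3 pLUM arrays and pLB replicate 1, and slide 2 held pLB replicates 2 and 3. The labels were checked against markers. Of 8 luminal markers 7 were called lower in pLB, each by its brightest probe, and KRT18 was not called. Their summed signal was 256 to 280 times the 75th percentile in pLUM and 82.5 to 87.1 in pLB. The further probes of KRT8 disagreed, at log2 differences of -2.57 and 1.89, both called. All 7 luminobasal markers were called higher, with summed signals of 1.06 to 1.31 in pLUM and 87.3 to 123 in pLB. The markers include CLDN3 (CLD3), ITGA6 (CD49f) and KRT5 (CK5), whose proteins were sorted on, so these are no independent check.

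All 15 probes of the 10 genes were tested. Of these, the BMP2 probe and 2 of BMP7 were well above background in pLB alone, and that of BMPR1B in pLUM alone, so that these 4 entered the test through the line in which they were high. The arrays did not overlap between the lines for 13 of them, beside 68.1% of all tested probes. In pLB, 5 probes were called higher, 4 lower and 6 were not called. Over all tested probes 45.6% were called, 21.9% higher and 23.7% lower, so that a called probe was common on these arrays. By gene, BMP2, BMP7 and ID1 were called higher, BMPR1B, ID2 and ID4 lower, and BMP4, BMPR1A, BMPR2 and ID3 were not called. Of all genes tested, 45.8% were called, 22.7% higher and 23.0% lower. The median size of the log2 difference was 3.26 over the 10 genes (2.88 with BMP2 and BMPR1B at their bounds) and 0.92 over all genes.

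**Figure D1:**
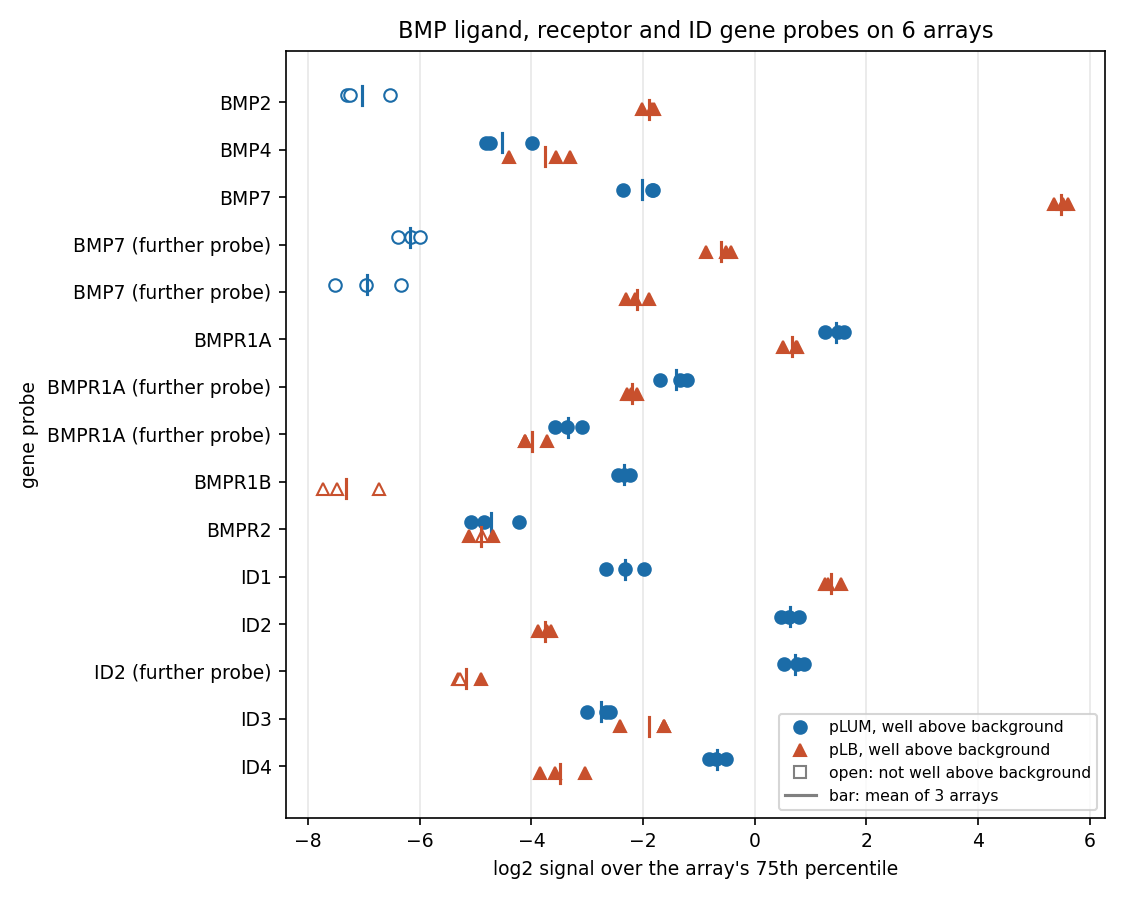
Log2 signal of each probe relative to the 75th percentile of its array, with pLUM as circles, pLB as triangles, open symbols where the spot was not well above background and a bar at the mean of 3 arrays. The symbols of the lines lie apart for BMP2, BMP7, BMPR1B, ID1, ID2 and ID4 and overlap for BMP4 and BMPR2.

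Of the ligands, BMP2 and BMP7 were higher in pLB and BMP4 was not called. BMP2, a ligand known for inducing bone, was read by 1 probe at chr20:6760810-6760869 (+). Its values were -6.53, -7.31 and -7.24 on the pLUM arrays and -1.80, -1.85 and -2.01 on the pLB arrays. All 3 pLB arrays and none of the pLUM arrays measured it above background. BMP2 was at least 11.2-fold higher in pLB (limma, adjusted p = 3.1e-06). With normexp, another background correction, its fitted log2 difference fell from 5.14 to 1.22, and it was still called.

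BMP7, a ligand of kidney, bone and epithelium, had the largest measured difference of the 10 genes. Its brightest probe, at chr20:55745555-55745614 (-), read -2.37, -1.84 and -1.83 in pLUM and 5.53, 5.36 and 5.61 in pLB. All 6 arrays were well above background, and the lowest pLB array stood far above the highest pLUM array. The log2 difference was 7.51 (SE 0.20, 95% CI 7.03 to 7.99), a 182-fold higher signal (adjusted p = 4.2e-07).

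The other BMP7 probes had the same direction, but lay in the background in pLUM. The one at chr20:55743791-55743844 (-) read -6.16, -5.99 and -6.38 in pLUM and -0.42, -0.51 and -0.87 in pLB, at least 27.4-fold higher (adjusted p = 1.1e-06). The one printed above read -6.33, -7.52 and -6.97 in pLUM and -2.14, -1.90 and -2.30 in pLB, at least 9.62-fold higher (adjusted p = 1.3e-05). With normexp the differences of these dim probes were 2.29 and 1.1 on the log2 scale, smaller than the bounds and still called. All 3 probes separated the lines on every array, although the last lies far from the others in the genome.

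BMP4, a ligand close to BMP2 in sequence, was dim in both lines. Its probe at chr14:54417318-54417377 (-) read -4.75, -4.82 and -4.00 in pLUM and -3.31, -3.57 and -4.41 in pLB. The lines overlapped, since pLUM replicate 3 was above pLB replicate 3. The log2 difference of 0.76 (SE 0.35, 95% CI -0.06 to 1.58) was not called (adjusted p = 0.093). BMP4 was called higher without pLB replicate 3 (log2 1.08, adjusted p = 0.014) and without pLUM replicate 3 (1.02, 0.047). Its log2 difference was -0.06 with normexp, and 1.21 within slide 1, where pLB replicate 1 is the only pLB array.

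Of the receptors, BMPR1B was lower in pLB and neither BMPR1A nor BMPR2 was called. BMPR1B, a type I receptor, read -2.23, -2.35 and -2.45 in pLUM and -7.48, -7.73 and -6.74 in pLB through the probe printed above. Every pLUM array and no pLB array measured it above background. Its signal was at least 7.72-fold lower in pLB (adjusted p = 6.1e-06). The fitted log2 difference was -4.97, and -1.78 with normexp.

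BMPR1A, the other type I receptor here, was well above background on all 6 arrays through each of its 3 probes. Its brightest probe, at chr10:88684862-88684921 (+), read 1.60, 1.49 and 1.26 in pLUM and 0.75, 0.50 and 0.76 in pLB. The lines did not overlap, and the signal was 1.72-fold lower in pLB (log2 difference -0.78, SE 0.17, 95% CI -1.19 to -0.37, adjusted p = 0.0058), under the 2-fold threshold. The further probes differed by -0.79 (95% CI -1.22 to -0.35) and -0.64 (95% CI -1.11 to -0.16), with no overlap either. The adjusted p-values of these further probes were 0.0079 and 0.028, and all 3 log2 differences lay between -0.79 and -0.64.

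BMPR2, the type II receptor that prefers BMP ligands, was close to background. Its probe at chr2:203431522-203431581 (+) read -4.22, -5.08 and -4.85 in pLUM and -4.69, -5.12 and -4.89 in pLB, where 2 of 3 arrays were well above background. The lines overlapped, with a log2 difference of -0.18 (SE 0.26, 95% CI -0.79 to 0.42, adjusted p = 0.56). A difference of up to 0.79 on the log2 scale lies inside that interval.

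**Figure D2:**
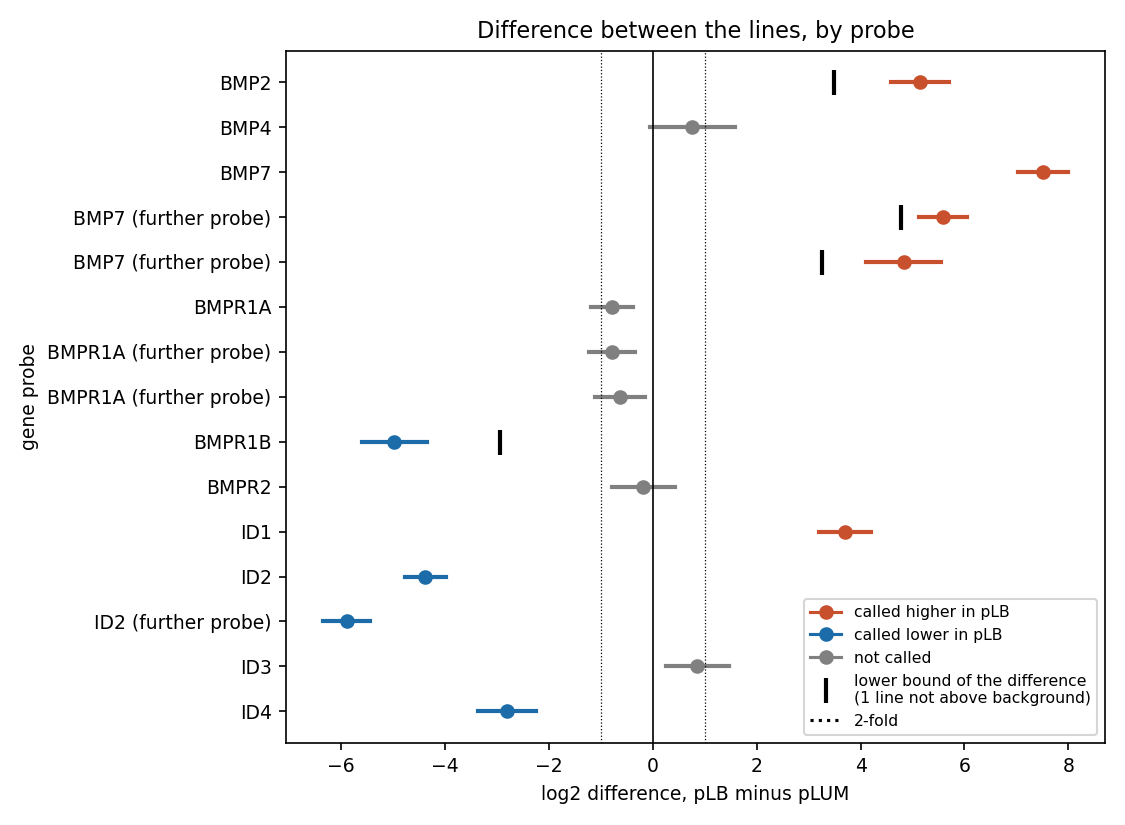
Log2 difference, pLB minus pLUM, of each probe as estimated by limma (point) with its 95% confidence interval (line), and, where 1 line was not well above background, the lower bound of the difference (black tick). Ligand and ID1 differences lie on the higher side, those of BMPR1B, ID2 and ID4 on the lower side, and the intervals of BMP4 and BMPR2 span 0.

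The 4 ID genes did not move together. ID1 was higher in pLB, ID2 and ID4 were lower, and ID3 differed by less than 2-fold. ID1, the ID gene most used as a readout of BMP signalling, read -2.67, -1.99 and -2.33 in pLUM and 1.32, 1.55 and 1.25 in pLB at chr20:30194158-30194217 (+). Every pLB array was above every pLUM array, with a log2 difference of 3.70 (SE 0.22, 95% CI 3.20 to 4.21) or 13.0-fold (adjusted p = 8.4e-06).

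ID2 had the opposite direction through both of its probes. The probe printed above read 0.62, 0.79 and 0.47 in pLUM and -3.72, -3.89 and -3.65 in pLB. The lines lay apart, and the signal was 20.8-fold lower in pLB (log2 difference -4.38, SE 0.17, 95% CI -4.78 to -3.98, adjusted p = 1.4e-06). The further probe, at chr2:8824282-8824341 (+), read 0.76, 0.89 and 0.53 in pLUM and -4.90, -5.31 and -5.28 in pLB. Only 2 of 3 pLB arrays measured it above background, and its signal was 59.3-fold lower (log2 difference -5.89, SE 0.19, adjusted p = 8.0e-07), or -3.71 on the log2 scale with normexp.

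ID4 read -0.51, -0.69 and -0.83 in pLUM and -3.84, -3.58 and -3.03 in pLB at chr6:19840841-19840900 (+). All 6 arrays measured it above background, and all pLB arrays were below all pLUM arrays. The signal was 7.00-fold lower in pLB (log2 difference -2.81, SE 0.24, 95% CI -3.37 to -2.25, adjusted p = 5.0e-05). KRT5, KRT14 and KRT17, the basal keratins among the luminobasal markers, were higher in the same arrays.

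ID3 read -3.00, -2.66 and -2.58 in pLUM and -1.62, -1.63 and -2.41 in pLB at chr1:23885666-23885725 (-). The lines did not overlap, though pLB replicate 3 came close to the pLUM arrays. The log2 difference was 0.86 (SE 0.26, 95% CI 0.25 to 1.47, adjusted p = 0.022), a 1.81-fold higher signal that did not reach the 2-fold threshold. ID3 was called higher without pLB replicate 3 (log2 1.12, adjusted p = 0.0019). With slide as a fixed block or within slide 1 the log2 difference was 1.12. Both of these settings compare pLB replicate 1 alone with pLUM, since slide 2 held no pLUM array.

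The other genes of the pathway were taken from a list of 54, of which 53 had a probe. There were 35 tested, and 16 were called higher in pLB, 6 lower and 13 were not called, beside 22.7% of all genes called higher and 23.0% lower. FST, NOG, CHRDL1, SOSTDC1 and MSX1 were above background in pLB alone and so entered the test through the line in which they were high. The median log2 difference of the 35 was 0.78, also with these 5 at their bounds, and that of all genes tested was 0.04, which describes the genes that passed the filter and not the whole list. With normexp, 10 were called higher and 3 lower. Of the rest, 14 had probes that lay in the background on every array, and NBL1 had no probe.

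Among 11 other ligands only BMP8B was tested. The brighter of its 2 probes read 5.30, 5.06 and 5.22 in pLUM and 3.59, 3.76 and 5.09 in pLB, where replicate 3 lay within the range of pLUM. The 2.07-fold lower signal (log2 difference -1.05, adjusted p = 0.046) was not called under 11 of 22 alternatives, among them the omission of any 1 pLUM array (log2 -0.99, -1.11 and -1.04 without replicates 1, 2 and 3) or of pLB replicate 1 (-0.77) or 2 (-0.85). The other probe was above background on none of the 6 arrays. BMP8B has a near-identical neighbour in BMP8A, whose probe lay in the background throughout. BMP6 was measured above background on 2 pLB arrays and on no pLUM array, too few for the test.

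Of 8 other receptors and co-receptors 6 were tested, and 4 were called higher and 1 lower, beside 22.7% and 23.0% of all genes. RGMA, a co-receptor anchored in the membrane, read -3.81, -4.22 and -3.69 in pLUM and -0.55, -0.52 and -0.57 in pLB, 10.3-fold higher (log2 difference 3.36, SE 0.19, adjusted p = 7.0e-06). ENG, endoglin, a co-receptor best known from endothelium, read -4.50, -3.84 and -3.41 in pLUM and -0.57, -0.30 and -1.43 in pLB, 8.88-fold higher (3.15, SE 0.38, adjusted p = 0.00027). In both, every pLB array lay above every pLUM array. With normexp the log2 differences were 1.93 for RGMA and 1.70 for ENG, both still called.

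ACVR1, a type I receptor used by BMP7, read -3.87, -3.37 and -3.82 in pLUM and -0.60, -0.71 and -1.67 in pLB, 6.45-fold higher (2.69, SE 0.32, adjusted p = 0.00025), and 1.45 on the log2 scale with normexp. Its further probe, dim in pLUM, was at least 1.76-fold higher (adjusted p = 6.0e-06). The type II receptors ACVR2A and ACVR2B, shared with activin, had opposite directions. ACVR2A was 2.18-fold higher (1.12, adjusted p = 0.00068), and was not called with normexp (0.46). ACVR2B was 2.07-fold lower (-1.05, adjusted p = 0.0011), and came under the 2-fold threshold in 6 alternatives, including those without pLUM replicate 1 (-0.99) and without pLB replicate 2 (-0.99).

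Markers of endothelium were set beside ENG. Of 4, PECAM1 and KDR were well above background on no array, CDH5 was not called, and VWF was at least 1.80-fold higher in pLB. Their summed signal was 0.0728 to 0.108 times the 75th percentile in pLUM and 0.0937 to 0.207 in pLB. Of 7 fibroblast markers, 5 were well above background on no array, COL1A1 was not called and COL1A2 was at least 11.5-fold higher in pLB, with summed signals of 0.772 to 0.971 and 0.791 to 1.15. Of the leukocyte markers, CD68 was called higher (2.87-fold), PTPRC was not called and CD3E was well above background on 1 array of each line. Host cells of a xenograft in mice would be mouse cells, whereas the probes are for human genes. Both lines were also sorted and cultured for months before RNA was taken. The part of such cells in these differences was not tested.

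The list of antagonists, which keep ligands from receptors, and of other modulators included the largest fitted difference of the pathway, that of FST. Of 18 listed, 11 were tested, 7 were called higher and 3 lower, beside 22.7% and 23.0% of all genes, and TWSG1 was not called. Of the 7, FST, NOG, CHRDL1 and SOSTDC1 passed the filter through pLB alone. FST, follistatin, which binds activins and some BMPs, read -7.39, -7.61 and -7.13 in pLUM and 5.91, 5.58 and 5.36 in pLB. No pLUM array measured it above background, and the pLB signal was at least 2041-fold above that of pLUM (adjusted p = 1.3e-07). NOG, noggin, which binds BMP2, BMP4 and BMP7, read -7.32, -7.51 and -7.47 in pLUM and 0.67, 0.37 and 0.77 in pLB. It too was measured in pLB alone, at least 63.2-fold higher (adjusted p = 2.3e-07). The fitted log2 difference fell with normexp from 12.99 to 8.38 for FST and from 8.04 to 3.50 for NOG, both smaller than the bounds and both still called.

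CHRDL1, a chordin-like antagonist, read -6.84, -7.62 and -7.58 in pLUM and -2.10, -2.20 and -2.62 in pLB, at least 8.41-fold higher (adjusted p = 5.7e-06). SOSTDC1, an antagonist of BMP and Wnt ligands, read -7.50, -7.72 and -7.71 in pLUM and -2.35, -2.61 and -2.42 in pLB, at least 7.56-fold higher (adjusted p = 6.3e-07). Both were measured above background on every array of pLB and on none of pLUM. The fitted log2 difference of CHRDL1 was 1.07 with normexp and that of SOSTDC1 was 1.06, both still called.

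CHRD, chordin, had the opposite direction, with 1.25, 1.21 and 1.73 in pLUM and -4.00, -3.77 and -3.47 in pLB. Every pLB array was below every pLUM array, and the signal was 35.3-fold lower (log2 difference -5.14, SE 0.22, adjusted p = 2.2e-06), or -3.84 on the log2 scale with normexp. A second CHRD probe, dim in pLB, read -4.61, -4.18 and -4.10 in pLUM and -2.63, -5.97 and -4.91 in pLB and was not called (log2 difference -0.21, 95% CI -1.99 to 1.58, adjusted p = 0.82), so the probes of CHRD disagreed. DAND5 (7.47-fold, log2 difference -2.90, and -1.81 with normexp) and BAMBI, a membrane pseudoreceptor (2.90-fold), were the others called lower, and BMP1 (3.29-fold) and FSTL1 (2.87-fold) were also called higher. A second probe of BMP1, measured above background on 2 arrays of each line, was not called (log2 difference 0.08, 95% CI -0.37 to 0.54, adjusted p = 0.73), so the probes of BMP1 disagreed as well. These 4 were named after their values were seen, to fill in the counts.

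**Figure D3:**
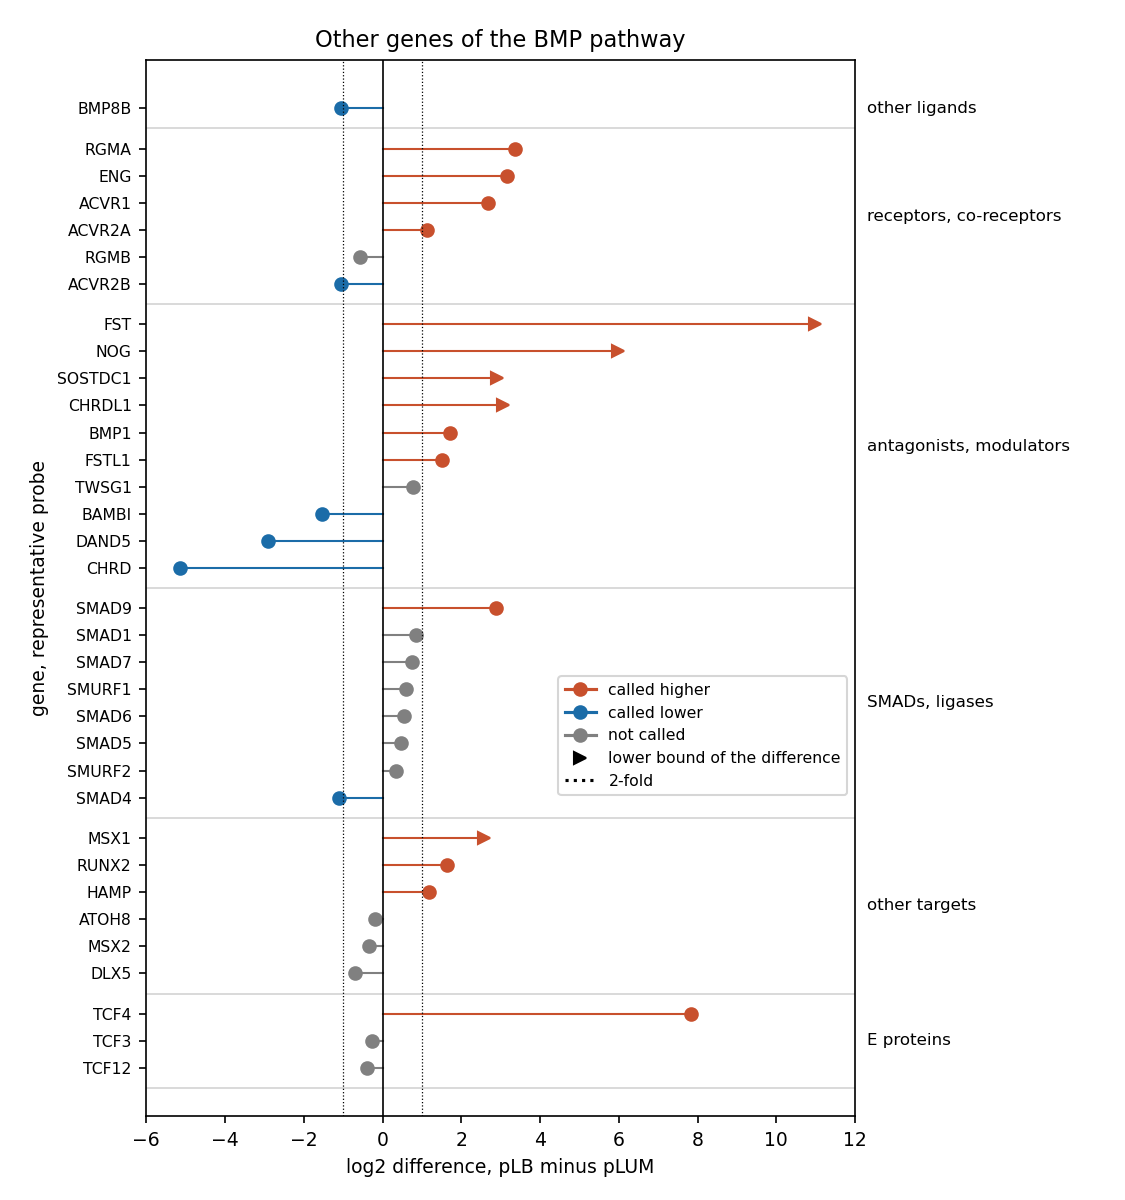
Log2 difference, pLB minus pLUM, of the other pathway genes reported, by list, with colour for the call and an arrowhead where the value is a lower bound because pLUM was not well above background. FST lies furthest above 0 and CHRD furthest below, and 6 of the 8 SMADs and ligases are not called.

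Of the 8 SMADs and SMAD ligases, which carry or limit the signal, 1 was called higher, 1 lower and 6 were not called. Over all genes tested, 22.7% were called higher and 23.0% lower. SMAD9, 1 of the SMADs that BMP receptors phosphorylate, read -5.17, -4.99 and -4.43 in pLUM and -2.00, -2.12 and -1.78 in pLB. Its level was above background on 2 of 3 arrays of pLUM, and was 7.42-fold higher in pLB (log2 difference 2.89, SE 0.23, adjusted p = 3.8e-05), and was not called with normexp (0.91). SMAD1 and SMAD5, which share that role, were not called, with log2 differences of 0.84 (95% CI 0.31 to 1.37) and 0.46 (95% CI 0.02 to 0.90). SMAD1 was called higher without pLUM replicate 1 (1.06) and with spike-in scaling (1.07).

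SMAD4, the partner common to BMP and TGF-beta signalling, was read by a probe spotted 10 times on each array. It read -1.76, -1.89 and -2.42 in pLUM and -3.18, -3.16 and -3.02 in pLB, 2.13-fold lower (log2 difference -1.09, SE 0.21, adjusted p = 0.0030). The lines did not overlap, but SMAD4 came under 2-fold without pLUM replicate 1 (-0.96), with normexp (-0.81) and with spike-in scaling (-0.86). The inhibitory SMAD6 (0.55, 95% CI 0.02 to 1.08) and SMAD7 (0.76, 95% CI 0.32 to 1.20), themselves targets of the pathway, were not called. The ubiquitin ligases SMURF1 (0.60) and SMURF2 (0.36) were not called either.

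Of 6 other target genes, 3 were called higher in pLB and none lower, beside 22.7% and 23.0% of all genes. MSX1, a homeobox gene, read -5.78, -6.54 and -5.94 in pLUM, where no array was well above background, and -2.52, -2.73 and -3.17 in pLB, at least 5.94-fold higher (adjusted p = 4.0e-05), and was not called with normexp (0.58). RUNX2, the bone transcription factor, read -1.76, -2.09 and -2.59 in pLUM and -0.97, -0.88 and 0.36 in pLB. It was 3.14-fold higher (log2 difference 1.65, SE 0.40, adjusted p = 0.0082), and was not called with slide as a fixed block. The log2 difference in that setting, 1.17, rests on pLB replicate 1 alone. The further RUNX2 probe, dim in pLUM, was at least 2.37-fold higher (adjusted p = 0.00039).

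HAMP, hepcidin, the iron hormone that BMP signalling induces in liver, read -2.33, -2.96 and -3.54 in pLUM and -1.85, -1.43 and -1.97 in pLB, 2.28-fold higher (1.19, SE 0.32, adjusted p = 0.014). That call was lost under 6 alternatives, including those without pLUM replicate 3 (0.89) and without pLB replicate 2 (1.03, adjusted p = 0.051). DLX5 (-0.70), MSX2 (-0.33) and ATOH8 (-0.20) were not called.

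The E proteins, the partners of ID proteins, were TCF3, TCF4 and TCF12. TCF4, the helix-loop-helix factor also known as E2-2, read -6.23, -5.56 and -5.28 in pLUM and 2.21, 1.84 and 2.41 in pLB. Its level was above background on 1 array of pLUM and on all arrays of pLB. It was called higher in pLB (fitted log2 difference 7.84, SE 0.28, adjusted p = 1.1e-06), also with normexp (4.85), but the size rests on a pLUM level that only 1 array measured. TCF3 (-0.26) and TCF12 (-0.38) were not called.

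BMP7, ID1, ID2 and ID4 stayed called in the same direction under all 22 alternatives, and BMP2 and BMPR1B under the 21 in which they were tested. The filter for probes above background on all 6 arrays removed BMP2 and BMPR1B. The log2 differences ranged from 5.97 to 7.74 for BMP7, from 2.93 to 3.93 for ID1, from -5.13 to -3.15 for ID2 and from -3.17 to -1.92 for ID4. For BMP2 they ranged from 1.22 to 5.39 and for BMPR1B from -5.26 to -1.78. The lowest size for BMP2, BMPR1B, ID1, ID2 and ID4 came with normexp. That setting starts from the mean spot signal and its background in place of the processed signal, and adds an offset of 50. Which of these changes lowered the sizes was not tested.

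**Figure D4:**
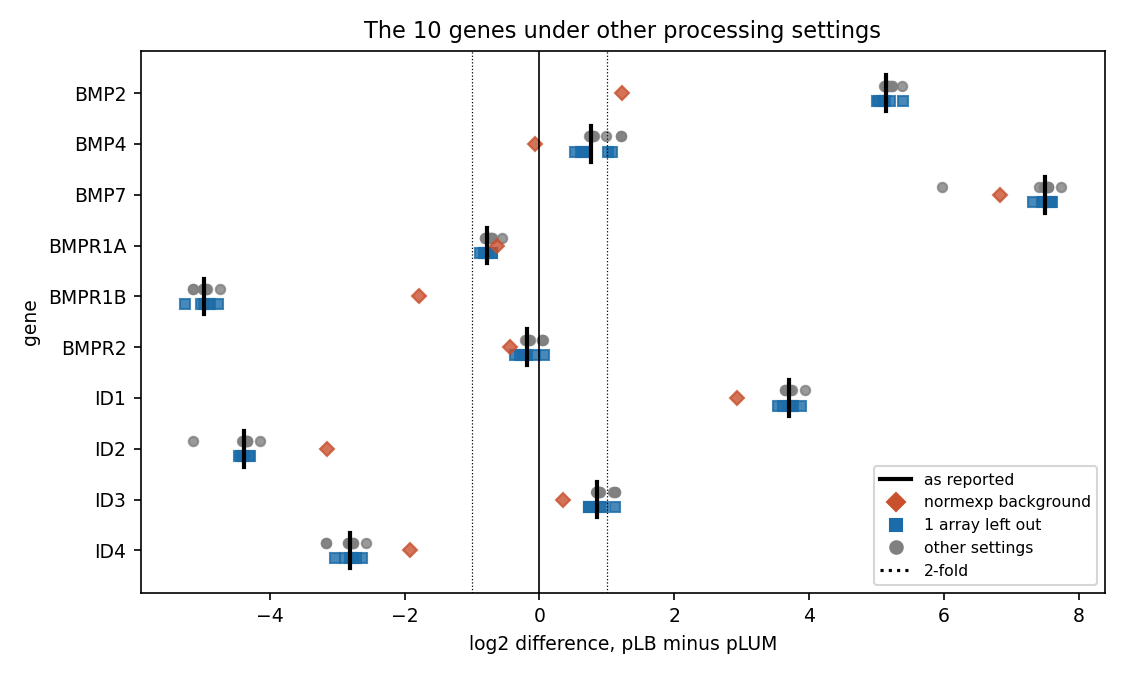
Log2 difference, pLB minus pLUM, of the 10 genes as reported (black bar), with normexp background correction (diamonds), with 1 array left out (squares) and under the other alternatives (circles), with dotted lines at 2-fold. BMP2, BMP7, BMPR1B, ID1, ID2 and ID4 stay beyond 2-fold in 1 direction, while BMP4, BMPR2, BMPR1A and ID3 lie near or inside it.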

How the data were processed

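RNA of 3 pLUM and 3 pLB sorts was hybridised in 1 colour, 1 sample an array, and scanned. Per the file headers, the authors deposited spot intensities from Agilent Feature Extraction 10.10.1.1, which subtracts background and detrends spatially to give the processed signal, with flags for outlier spots, saturation and signal well above background. Positions were those of the files (hg19), and the genes' exon and UTR annotation in that build was not used here. Sequences before gene starts came from RefSeq (GRCh38.p14).

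From these, control spots were left out and the processed intensities were converted to log2. Outlier-flagged spots were left out and the remaining spots of 1 probe were averaged. The 75th percentile of each array, taken over all its gene spots with the flagged ones included, was then subtracted on the log2 scale. Probes flagged as well above background by 3 or more of the 6 arrays were tested with lmFit and eBayes in limma 3.58.1 (R 4.3.3), without covariates, over all 23105 probes or, with the probe of highest mean for each gene, over 17670 genes. Calls were made at 2-fold and at 0.05 for the adjusted p. Over the tested probes and all arrays, 6 values were missing, none of them of a probe of the 10 genes. Permuting 3 arrays against 3 gives no exact p below 0.1, so the main calls came from the model across all probes. A t-test of each probe served only as an alternative. The fit and the calls were tested on simulated data, drawn around the scaled values of probes that had passed the filter. The earlier steps and the bounds were not tested in that way.

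A bound, for a probe that no array of 1 line measured well above background, used, on each array of that line, the higher of the probe's signal and the lowest signal of any probe well above background. The number of arrays limits the precision. Named were all 10 genes, up to 5 called genes of each pathway list by size of the fitted difference, and every SMAD. The genes, lists and alternatives were chosen with earlier results of these data known. Alternatives covered background correction, scaling, filters, probe choice, thresholds, the methods' t-test on the same values, slide, replicate number and leaving out each array. Single genes of the pathway and marker lists are not reported here by name, and are in the counts alone.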

Additional observations from a re-analysis of the deposited data

How the results depend on the processing

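Of 33 named genes, 19 kept their call and direction under every alternative in which they were tested, 13 changed a call, and 2 changed sign, neither of them called. BMP4 was at -0.059 with normexp, and BMPR2 at 0.048 with spike-in scaling, 0.031 with slide as a fixed block or within slide 1, and between -0.36 and 0.066 without 1 array, the highest without pLUM replicate 1. Among the 10 genes, 5 in place of 3 were called higher without pLB replicate 3. Differences within slide 1 or with slide as a fixed block rest on pLB replicate 1 alone, since slide 2 held no pLUM array. Requiring all 6 arrays well above background left 2 of their probes called higher and 2 lower, and 8 other pathway genes called higher, since dim probes were no longer tested. With no fold threshold 7 of their probes were called lower. Other pathway genes called higher numbered 10 and those called lower 3 with normexp, and 3 were called lower with spike-in scaling. Leaving out 1 array gave 5 to 7 probes of the 10 genes called higher and 4 to 4 lower, 3 to 5 genes higher and 3 to 3 lower, and 15 to 17 other pathway genes higher and 3 to 6 lower, the 3 without pLUM replicate 1. The median log2 difference of all genes was 0.04, 0.26 with spike-in scaling and -0.15 with normexp, and relative to that median no called gene of the 10 changed direction. Over all probes, 5054 were called higher and 5476 lower, against 3243 and 3683 with normexp. Equal replicate numbers in the lines did not pair the arrays (r of deviations -0.27, -0.09 and -0.22). With a replicate block 5 probes of the 10 genes were called higher and 4 lower, and of the named genes only BMP8B lost its call (adjusted p = 0.053). Dim signals limit BMP2, BMP4, BMPR1B and BMPR2, whose levels in 1 or both lines lay near or under background. The cause of the other changes was not tested.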
